A study of Mus musculus with 4 samples.

Results

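The 10 genes described here belong to the methionine cycle and to one-carbon folate metabolism, and were measured in mouse liver with and without hemojuvelin: Mat1a, Gnmt, Bhmt, Ahcy, Cbs, Cth, Mthfd1, Shmt1, Mthfs and Mthfsl. The members were listed by name, and a member's data are the assembled transcript loci that overlap its exons on mouse build GRCm38. They are 10 of 21695 protein-coding genes considered, and 53 loci overlapped their exons, of which 44 were used for their values. All 10 had a locus in at least 1 library, and 7 had a value in every library and could be tested. In both knockout libraries Gnmt lay above and Bhmt below both wild type libraries, by 2.58-fold and 2.10-fold on average, while Mat1a, Cbs, Cth, Mthfd1 and Shmt1 overlapped between the genotypes. Groups that did not overlap were common among all genes tested, with 22.4% higher and 23.7% lower in knockout. No member passed the test over all genes.

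The methionine cycle turns methionine into S-adenosylmethionine, the methyl donor of most cellular methylation, then into S-adenosylhomocysteine and homocysteine. Homocysteine is either methylated back to methionine, with betaine or a folate as the donor, or drawn off through cystathionine to cysteine. The folate enzymes carry one-carbon units from serine and formate to this cycle and to purine and thymidylate synthesis, and the liver is a main site of both pathways.

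The libraries are bulk liver RNA of male C57BL/6 mice, with 2 libraries of wild type mice and 2 of mice in which both copies of the hemojuvelin gene (Hjv) are disrupted. Hemojuvelin is a co-receptor for bone morphogenetic proteins that hepatocytes need to make the iron hormone hepcidin. Every animal ate the AIN-93G diet low in iron (2.5 mg per kg of food) for 50 days from the age of 5 weeks until the liver was taken at 12 weeks. Wild type animals were bought and the knockout line came from another laboratory, so genotype and colony cannot be told apart. The labels do not call each library a separate animal, and the p-values measure only the spread between these libraries.

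Values are scaled FPKM, that is fragments per kilobase of transcript relative to the mapped fragments of the library, after each library was divided by 1 scaling factor. They are per length, so levels of different genes can be set side by side, but differences with GC content and with how loci are joined remain. Hjv stood at 9.24 and 29.7 in the wild type pair, had no value in knockout replicate 1 and stood at 0.237 in knockout replicate 2. Hepcidin (Hamp) stood at 22.0 and 100.4 in wild type, again without a value in knockout replicate 1, and at 1.62 in knockout replicate 2. The hepatocyte genes Apoa1, Ttr, Cps1, Fgb, Apoa2 and Tat were each above 200 in every library, while albumin (Alb) had no locus in any, so a missing locus is not a level of 0. Estimated depth ran from 51.17 to 131.61 M fragments, if the smallest step between confidence bounds is 1 fragment.

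Mat1a, at chr14:41105035-41124412 on the plus strand, encodes the liver's methionine adenosyltransferase, which makes S-adenosylmethionine. It measured 612 and 750 scaled FPKM in the wild type pair and 619 and 505 in the knockout pair. The groups overlapped, with knockout replicate 1 between the wild type libraries. The log2 difference, knockout minus wild type on log2(scaled FPKM + 1), was -0.28 with an SE of 0.24 and a limma adjusted p of 0.662. Its 95% interval ran from -0.891 to 0.339. In knockout replicate 2 the locus covered 45.8% of the longest transcript, against 100% in the other libraries.

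Gnmt, at chr17:46725664-46729168 on the minus strand, encodes glycine N-methyltransferase, which uses S-adenosylmethionine to make sarcosine and is one of the most abundant methyltransferases of liver. It measured 424 and 639 scaled FPKM in the wild type pair and 963 and 1778 in the knockout pair. Both knockout libraries stood above both wild type libraries, and the knockout libraries were also far apart from each other. The wild type mean was 532 ± 152 and the knockout mean 1371 ± 576 (SD, n = 2 each). The log2 difference was 1.33 with an SE of 0.40 and a 95% interval of 0.306 to 2.35. The limma unadjusted p was 0.021 and the adjusted p 0.420, rank 389 of the 7910 genes tested. Gnmt did not pass the adjusted test. In knockout replicate 2 the deposited value, 1692 FPKM, lay above its own confidence bounds of 1304 and 1328. With the midpoints of the bounds in place of the deposited values the log2 difference was 1.15. With each library left out in turn it ran from 0.88, without knockout replicate 2, to 1.79, without knockout replicate 1.

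Bhmt, at chr13:93616675-93637961 on the minus strand, encodes betaine-homocysteine methyltransferase, which methylates homocysteine with a methyl group of betaine and releases dimethylglycine. It measured 1418 and 1259 scaled FPKM in the wild type pair and 525 and 750 in the knockout pair. Both knockout libraries stood below both wild type libraries, and the gap between the groups was wider than the gap within either. The wild type mean was 1339 ± 113 and the knockout mean 637 ± 159 (SD, n = 2 each). The log2 difference was -1.09 with an SE of 0.27 and a 95% interval of -1.78 to -0.397. The limma unadjusted p was 0.010 and the adjusted p 0.397, rank 199 of the genes tested, so Bhmt did not pass the adjusted test either. Its loci covered between 79.6% and 86.9% of the longest transcript, in 1 piece in each library. With each library left out in turn the difference ran from -1.35, without knockout replicate 2, to -0.81, without knockout replicate 1.

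The neighbours of Bhmt on chromosome 13 belong to the same pathway. Bhmt2 (chr13:93655720-93674302, minus strand), which methylates homocysteine with S-methylmethionine, measured 58.7 and 76.6 scaled FPKM in wild type against 62.5 and 71.8 in knockout. Its groups overlapped, with a log2 difference of -0.0019. Dmgdh (chr13:93674433-93752833, plus strand) encodes the mitochondrial enzyme that oxidises dimethylglycine, the product of Bhmt, to sarcosine. Dmgdh measured 202 and 190 in wild type against 127 and 102 in knockout, a log2 difference of -0.77 with a limma adjusted p of 0.412. Its transcript came in 1 locus in the wild type libraries and in 2 in the knockout libraries. With the loci of a gene summed, the Dmgdh log2 difference was 0.18, so its direction depends on how the pieces are joined.

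Ahcy, at chr2:155059310-155074497 on the minus strand, encodes adenosylhomocysteinase, which splits S-adenosylhomocysteine into homocysteine and adenosine. It measured 290 and 321 scaled FPKM in the wild type pair and 75.6 in knockout replicate 1, and had no locus in knockout replicate 2. The wild type loci covered 93.1% and 93.9% of the longest transcript, while the knockout locus covered 19.8% of it at the 5′ end. That locus was deposited at 90.9 FPKM, above its confidence bounds of 55.3 and 62.6. Ahcy was not tested. Without knockout replicate 2 its log2 difference was -2.003, which sets a partial locus against near-complete ones. Of 242 genes at 200 or more scaled FPKM in both wild type libraries, knockout replicate 2 lacked a locus for 11 (4.55%) and knockout replicate 1 for 1 (0.413%). Of 188 genes at that level in both knockout libraries, each wild type library lacked a locus for 3 (1.60%).

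**Figure D1:**
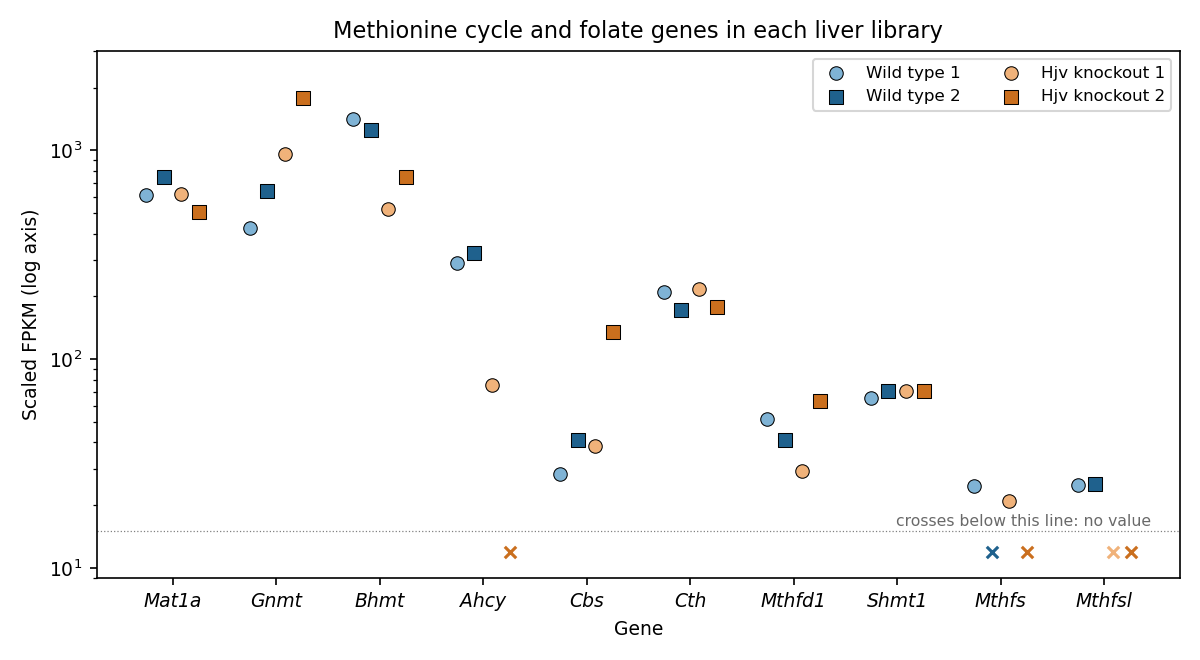
Scaled FPKM (log axis) of the 10 genes in each library, with circles for replicate 1 and squares for replicate 2, blue for wild type and orange for knockout, and crosses under the dotted line for no value. Both knockout libraries lie above wild type for Gnmt and below it for Bhmt, and a single knockout library stands apart for Cbs.

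Cbs and Cth encode the enzymes of transsulfuration, which carry homocysteine to cysteine. Cbs, at chr17:31608894-31637238 on the minus strand, encodes cystathionine beta-synthase and measured 28.4 and 41.1 scaled FPKM in wild type against 38.4 and 135 in knockout. Knockout replicate 2 alone stood apart, and knockout replicate 1 lay between the wild type libraries. The ratio of means was 2.50, and the log2 difference was 1.06 with an SE of 0.62, an interval of -0.538 to 2.66 and a limma adjusted p of 0.550. Without knockout replicate 1 it was 1.97, without knockout replicate 2 it was 0.161 and with the loci of a gene summed it was 0.488. Over the alternatives that kept all 4 libraries, the limma adjusted p ranged from 0.372 to 0.949.

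The value of Cbs also depends on how it was assembled. Its loci numbered 2 and 5 in the wild type pair and 3 and 2 in the knockout pair, and together covered from 44.9% to 93.2% of the longest transcript, whose last exon is long. Weak pieces over that last exon enter the mean, so the highest locus of the gene was read too. It measured 31.3 and 71.2 in wild type against 51.8 and 155 in knockout on the scaled FPKM scale, with the same library on top.

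Cth, at chr3:157894248-157925077 on the minus strand, encodes cystathionine gamma-lyase, which releases cysteine from cystathionine. It measured 209 and 173 scaled FPKM in wild type against 217 and 177 in knockout, so the libraries interleaved. The log2 difference was 0.04, with an SE of 0.22, an interval of -0.530 to 0.618 and a limma adjusted p of 0.949. It was -0.10 without wild type replicate 2 and -0.08 without knockout replicate 1, so Cth has no stable direction.

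**Figure D2:**
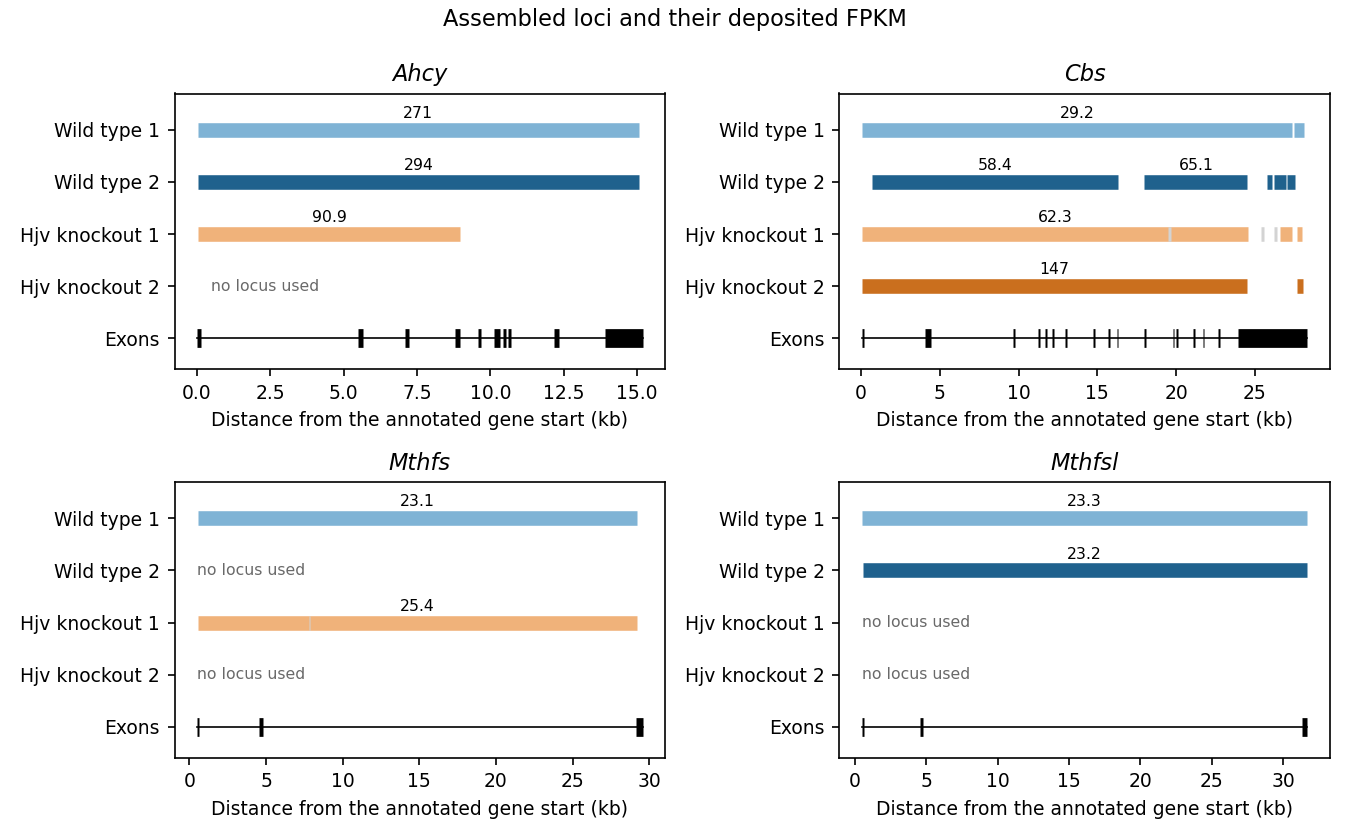
Assembled loci over 4 genes in each library, drawn by distance from the annotated gene start in kb, with the deposited FPKM above each used locus over 5 FPKM, grey for loci that were not used, and the exons of the longest coding transcript in black. Ahcy is a partial locus in knockout replicate 1 and absent in knockout replicate 2, Cbs is split differently in each library, and Mthfs and Mthfsl each have loci in only some libraries.

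Among the folate members, Shmt1, at chr11:60788104-60811718 on the minus strand, encodes the cytosolic serine hydroxymethyltransferase, which moves a carbon from serine to tetrahydrofolate. It measured 65.4 and 70.8 scaled FPKM in wild type against 70.2 and 70.7 in knockout. The groups overlapped. The log2 difference was 0.05, with an SE of 0.18, an interval of -0.408 to 0.507 and a limma adjusted p of 0.928, and it was -0.02 without wild type replicate 1. The end of Shmt1 touches a locus of its neighbour Smcr8 in 3 libraries, which was not used.

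Mthfd1, at chr12:76255298-76319803 on the plus strand, encodes the cytosolic enzyme with 3 activities that interconverts the formyl, methenyl and methylene forms of tetrahydrofolate. It measured 51.7 and 41.3 scaled FPKM in wild type against 29.1 and 63.5 in knockout. The knockout libraries lay on either side of the wild type libraries. The log2 difference was -0.10 with an SE of 0.40, an interval of -1.14 to 0.942 and a limma adjusted p of 0.937. Between the knockout libraries it differed by 1.10 on the log2 scale, and its genotype difference has no stable direction. It was 0.10 with values as deposited, 0.05 without wild type replicate 1 and 0.47 without knockout replicate 1. The transcript of Mthfd1 came in 2 loci in wild type replicate 2 and in 1 in each other library. Its log2 difference was -0.23 with the highest locus and -0.57 with the loci summed.

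Mthfs, at chr9:89210676-89377713 on the plus strand, encodes methenyltetrahydrofolate synthetase, which returns formyltetrahydrofolate to the active folate pool. Mthfsl, at chr9:88688602-88720296 on the minus strand, is its near-identical copy on the same chromosome. Their coding sequences, from the GENCODE M21 transcripts on GRCm38, are 612 bases each and differ at 3 bases, an identity of 99.51%. All 3 differences lie in the second coding exon of 262 bases, and the first and last coding exons, of 117 bases and of 230 bases before the stop codon, are identical. The stretch that holds every difference is shown because only fragments that reach a differing base can tell the copies apart by their coding sequence. Coding bases 146 to 315 are printed 5′ to 3′ on the coding strand, counted from 1 at the A of the start codon, with the differing bases in capitals.
Mthfs: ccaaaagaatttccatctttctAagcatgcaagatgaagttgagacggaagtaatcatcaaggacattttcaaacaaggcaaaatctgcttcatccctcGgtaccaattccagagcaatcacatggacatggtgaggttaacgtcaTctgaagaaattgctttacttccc
Mthfsl: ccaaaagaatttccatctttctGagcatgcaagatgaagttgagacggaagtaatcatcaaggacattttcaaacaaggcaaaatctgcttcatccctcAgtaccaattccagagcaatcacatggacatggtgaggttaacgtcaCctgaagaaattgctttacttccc
With the Mthfs base first, the differences are A168G, G245A and T292C. The longest identical run of the aligned coding sequences is 320 bases.

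Mthfs measured 24.7 scaled FPKM in wild type replicate 1 and 21.1 in knockout replicate 1, with no value in either replicate 2. Mthfsl measured 25.0 and 25.3 in the wild type pair, while both knockout libraries lacked a locus for it. Both Mthfsl values were deposited above their own confidence bounds. They were 23.3 FPKM against bounds of 16.4 and 19.4 in wild type replicate 1, and 23.2 against 15.6 and 19.4 in replicate 2. Wild type replicate 1 held both copies, wild type replicate 2 only Mthfsl, knockout replicate 1 only Mthfs, and knockout replicate 2 neither. Neither gene was tested, and because fragments from the identical exons fit both copies, how they were shared between the copies is uncertain. Which copy has a locus in a library cannot be read as which copy is expressed.

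Set side by side, the order of levels in the wild type means was Bhmt, Mat1a, Gnmt, Ahcy, Cth, Shmt1, Mthfd1, Cbs and Mthfsl. The ranges of Mat1a and Gnmt overlapped there, and those of the other neighbours in this order did not. Mthfd1 and Cbs nearly met, at 41.3 and 41.1 in wild type replicate 2. By the highest locus, Cbs stood at 71.2 in that library, above Mthfd1 (50.0) and Shmt1 (70.8). In wild type replicate 1 Cbs stayed below both, at 31.3, so its place depends on how its loci are joined. In the knockout means the order was Gnmt, Bhmt, Mat1a, Cth, Cbs, Shmt1 and Mthfd1 among the tested members. The ranges of Bhmt and Mat1a overlapped, as did that of Cbs with those of Shmt1 and Mthfd1. Gnmt was the third in wild type and the first in knockout. Its level stood at percentile 99 of the tested genes in wild type and 99.8 in knockout, and that of Bhmt at 99.7 and 99.2.

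Ratios within a library do not depend on the scaling between libraries, but differences with GC content need not cancel in them. The longest coding transcript is 57.5% GC for Gnmt, 49.5% for Bhmt and 49.8% for Mat1a. In knockout replicate 2 the Gnmt value lay above its own confidence bounds, and the Mat1a locus covered 45.8% of the longest transcript. The ratio of Gnmt to Bhmt was 0.299 and 0.508 in the wild type pair and 1.84 and 2.37 in the knockout pair. Bhmt exceeded Gnmt in both wild type libraries, and Gnmt exceeded Bhmt in both knockout libraries. The ratio of Mat1a, which makes S-adenosylmethionine, to Gnmt, which uses it, was 1.44 and 1.17 in wild type against 0.642 and 0.284 in knockout. Bhmt and Cth stand on the competing routes of homocysteine, and their ratio was 6.78 and 7.28 in wild type against 2.42 and 4.23 in knockout. These ratios were chosen after the gene levels were seen and rest on the same 4 libraries, so they carry no test.

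Over all 7910 genes tested, 0 were higher (0.00%) and 0 lower (0.00%) at a limma adjusted p under 0.05, with 0.160 as the smallest adjusted p. Without adjustment, limma put 456 genes (5.76%) higher and 417 (5.27%) lower in knockout at p under 0.05. With values as deposited the split was 875 higher and 129 lower, and the median of all genes moved from 0.02 to 0.19 on the log2 scale. Of the 7 tested members, 1 was higher at that level (Gnmt), 1 lower (Bhmt) and 0 passed the adjusted threshold. By groups that did not overlap, the members gave 1 higher, 1 lower and 5 overlapping, beside the 22.4% and 23.7% of all genes. Groups apart with at least a 2-fold difference of means on the log2 scale were less common, at 2.55% higher and 1.33% lower, and Gnmt and Bhmt met that too.

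These counts depend on single libraries. Without wild type replicate 1, 0 members had an unadjusted limma p under 0.05, beside 269 of 7973 genes tested. Without wild type replicate 2 it was 1 member, beside 275 of 8020 genes. Without knockout replicate 1 it was 3 members, beside 2251 of 8432 genes, and without knockout replicate 2 it was 4, Ahcy then included, beside 1425 of 8126 genes. Over all genes, 428 passed the adjusted threshold without knockout replicate 1, Cbs among them, against 11 without knockout replicate 2 and 1 without each wild type library. Where 1 library is left, it is assumed to vary like the other group, so such counts take in no spread within that genotype. The SD over genes of the log2 difference within a pair was 0.652 for knockout and 0.411 for wild type. The difference of Gnmt stood at percentile 98.9 of all genes and that of Bhmt at 1.1. The members' median log2 difference was 0.04, against 0.02 for all genes. For 1 gene with 2 libraries per group, the smallest two-sided p of an exact permutation test is 0.333. In bulk tissue, fewer cells of a type and less RNA per cell cannot be told apart.

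**Figure D3:**
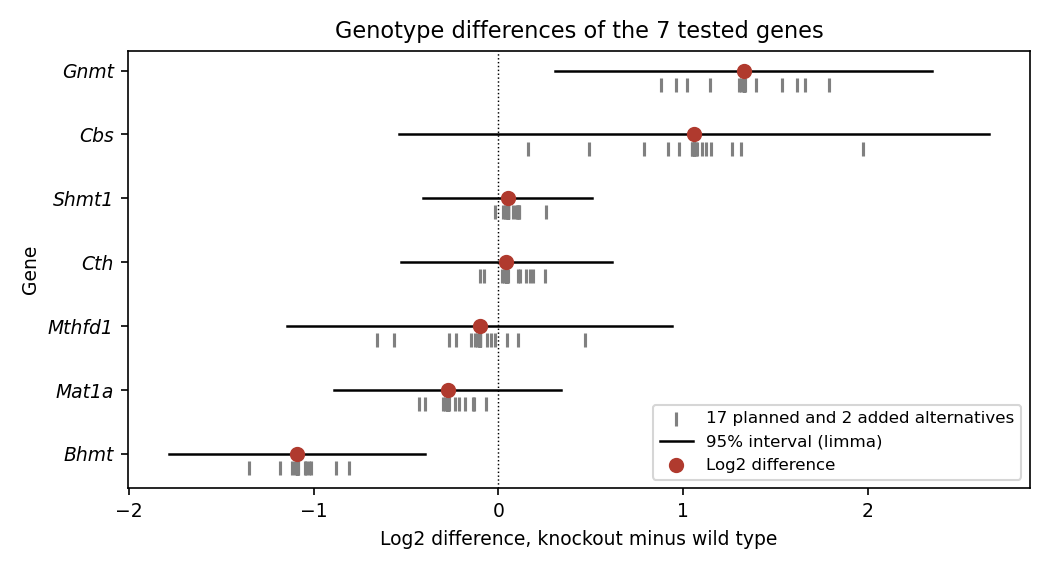
Log2 difference (knockout minus wild type) of the 7 tested genes, with the limma 95% interval as a line, the estimate as a red point and each of 19 alternative settings as a grey tick. Gnmt stays above 0 and Bhmt below 0 under every alternative drawn, and Cth, Mthfd1 and Shmt1 lie on both sides of 0.

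The libraries differed with the base composition of genes. Across tested genes, knockout replicate 2 over replicate 1 increased with GC content, with a Spearman correlation of 0.484. Wild type replicate 2 over replicate 1 did too, at 0.272, as did knockout minus wild type, at 0.385. These correlations are descriptions over genes that share libraries. The longest coding transcript of Gnmt is 57.5% GC, and the 1088 tested genes within 2 points of it had a median log2 difference of 0.367 between the genotypes and 0.557 between the knockout libraries. Gnmt itself differed by 1.33 and 0.88, and with GC content corrected its genotype difference was 0.960. The transcript of Bhmt is 49.5% GC, where genes had a median difference of -0.036 and Bhmt had -1.09. Cbs, at 49.8% GC, differed by 1.79 between the knockout libraries, where genes of like composition had a median of -0.037. The part of GC content in these results was not tested further.

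**Figure D4:**
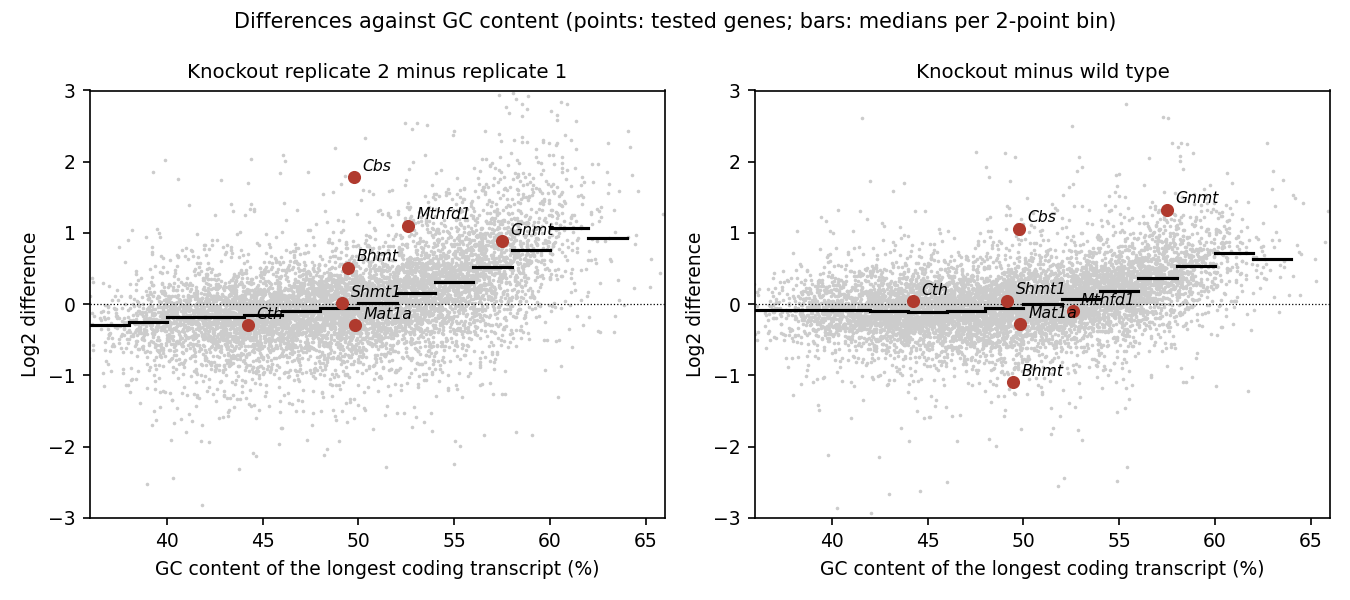
Log2 differences against the GC content (%) of the longest coding transcript, between the knockout libraries (left) and between the genotypes (right), with grey points for tested genes within the axis range, black bars for medians of 2-point bins and red points for the 7 tested members. The medians are higher at high than at low GC content in both panels, and Gnmt sits toward the GC-rich end while Bhmt, Cbs, Mat1a and Shmt1 sit near the middle.

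Around the members, 67 further genes were listed in 7 groups by function, and 59 of them were tested. Both knockout libraries stood above wild type for 13 and below for 17, and 29 overlapped. Their median log2 difference was 0.01. At an unadjusted limma p under 0.05, 4 were higher and 6 lower, and 0 passed the adjusted threshold. The shares with groups apart are 22% above and 28.8% below, beside 22.4% and 23.7% of all genes.

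Of the other methionine cycle enzymes 1 of 8 tested genes lay above in both knockout libraries and 3 below, with a median of -0.12. Mat2a, the methionine adenosyltransferase of non-hepatic tissues, measured 17.5 and 18.0 scaled FPKM in wild type against 18.7 and 14.1 in knockout. The methionine synthase Mtr, which uses a methyl folate, was at 2.21 and 1.96 in wild type against 1.86 and 1.56 in knockout, far below Bhmt in every library. Adk, the kinase that clears the adenosine released by Ahcy, measured 503 and 517 in wild type against 352 and 641 in knockout, and its groups overlapped. Among the Ahcy-like proteins, Ahcyl1 measured 32.4 and 30.6 in wild type against 25.0 and 29.9 in knockout. Ahcyl2 measured 6.77 and 4.43 in wild type against 3.46 and 3.05 in knockout, which is a log2 difference of -0.61 with a limma adjusted p of 0.468. The Ahcyl2 log2 difference was -0.36 without wild type replicate 1, -0.11 with all loci kept, -1.07 with the highest locus and -1.28 with the loci summed.

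The methyltransferases beside Gnmt went both ways, with 1 of 7 tested genes above in both knockout libraries, 3 below and a median of -0.07. Tpmt, which methylates thiopurines, measured 23.7 and 24.4 scaled FPKM in wild type against 40.3 and 51.6 in knockout, a log2 difference of 0.90. Inmt, Hnmt and Nnmt were lower in both knockout libraries. Inmt, which methylates indolamines, measured 303 and 320 in wild type against 192 and 194 in knockout, and Hnmt, which methylates histamine, had a log2 difference of -0.75. Nnmt, which methylates nicotinamide, measured 13.03 and 19.4 in wild type against 10.7 and 4.85 in knockout. The limma adjusted p of these 4 genes ran from 0.397 to 0.453, so none passed.

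Sarcosine, the product of Gnmt, is oxidised by sarcosine dehydrogenase. Its gene Sardh measured 60.9 and 73.2 scaled FPKM in wild type against 98.3 and 120 in knockout, a log2 difference of 0.69 with a limma adjusted p of 0.430. With the correction for GC content the Sardh log2 difference was 0.37, with an unadjusted limma p of 0.0994. Of the 5 tested genes of choline and sarcosine oxidation, Sardh was above in both knockout libraries, Dmgdh below and 3 overlapped, with a median of 0.21.

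Of 21 folate genes 16 were tested, with 5 above in both knockout libraries, 3 below and a median of 0.07. Ggh, the hydrolase that shortens folate polyglutamates, measured 7.08 and 7.37 scaled FPKM in wild type against 12.8 and 12.5 in knockout. Its log2 difference was 0.73 with a limma adjusted p of 0.397. Fpgs, the synthetase that lengthens the polyglutamates, measured 12.6 and 11.9 in wild type against 13.2 and 39.2 in knockout, so knockout replicate 2 alone stood far out. The Fpgs log2 difference was 0.85, and 0.39 with the correction for GC content. The folate receptor Folr2 measured 7.33 and 9.24 in wild type against 3.00 and 6.57 in knockout. Shmt2, the mitochondrial counterpart of Shmt1, measured 33.2 and 38.1 in wild type against 37.8 and 93.0 in knockout, and its groups overlapped. Aldh1l1, the abundant formyltetrahydrofolate dehydrogenase of liver cytosol, measured 166 and 181 in wild type against 180 and 186 in knockout.

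Downstream of Cbs and Cth, 9 of 10 cysteine and sulfur genes were tested, with 2 above in both knockout libraries, 1 below and a median of 0.16. Mpst, which transfers sulfur from mercaptopyruvate, measured 6.86 and 12.8 scaled FPKM in wild type against 14.7 and 51.1 in knockout. The Mpst log2 difference was 1.46, and 1.02 with the correction for GC content. Gclc, the catalytic subunit of the enzyme that limits glutathione synthesis, measured 84.9 and 60.0 in wild type against 76.6 and 83.2 in knockout. In methionine salvage and polyamine synthesis, 2 of 8 tested genes lay above wild type in both knockout libraries and 2 lay below, with a median of -0.03. Odc1, the ornithine decarboxylase that starts polyamine synthesis, measured 41.6 and 41.8 in wild type against 25.4 and 17.1 in knockout, a log2 difference of -0.97 with a limma adjusted p of 0.397. Mtap, which begins the salvage of methionine from methylthioadenosine, was higher in both knockout libraries (log2 difference 0.61) and Apip, a later enzyme of that route, lower in both (-0.59). With the loci of a gene summed the Mtap log2 difference was 1.01, and that of Apip was -0.39 with values as deposited and -0.26 with the midpoint of the bounds. Of 6 tested cobalamin genes 1 was above in both knockout libraries and 4 below, with a median of -0.26. Mmadhc, which directs cobalamin to its enzymes, measured 51.2 and 42.7 in wild type against 34.3 and 27.1 in knockout. None of these genes passed the adjusted test.

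**Figure D5:**
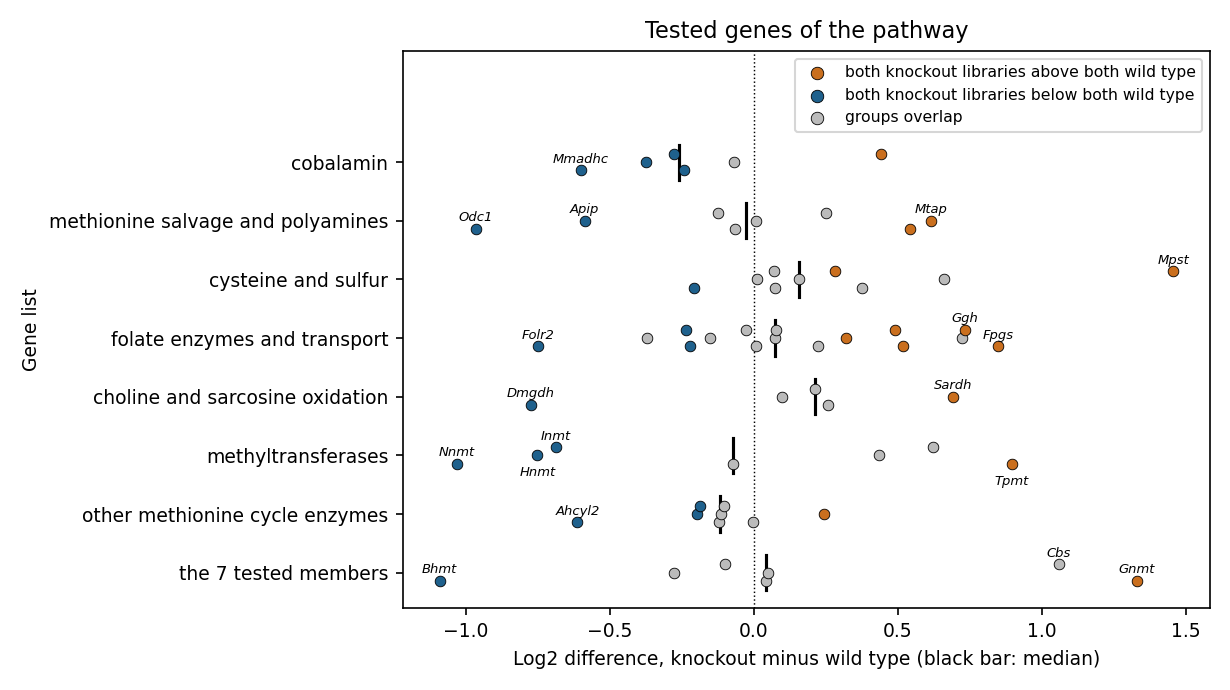
Log2 difference (knockout minus wild type) of each tested gene in the 7 pathway lists and of the 7 tested members, coloured by whether both knockout libraries lie above or below both wild type libraries, with black bars for list medians. Every list has genes on both sides of 0, and its median lies between -0.26 and 0.21.

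Markers of other liver cells lay apart by genotype in part. Of 5 tested stellate cell markers 4 were above in both knockout libraries, 3 of them at an unadjusted limma p under 0.05. Over all genes tested, 22.4% lay above and 23.7% below with groups apart, and 5.76% were higher at that p. The summed level of the stellate list was 92.1 and 74.5 scaled FPKM in wild type against 106 and 93.9 in knockout. Most of that sum was Dcn, whose groups overlapped, at 70.7 and 57.7 in wild type against 72.8 and 60.5 in knockout. Of 6 tested Kupffer cell markers 3 lay below wild type in both knockout libraries and 0 lay above, and that list summed to 109 and 134 in wild type against 83.3 and 114 in knockout. The endothelial list summed to 65.2 and 83.6 in wild type against 81.9 and 89.3 in knockout. Hepatocyte markers summed to between 11612 and 16036 in each library, and of 4 tested 1 was above in both knockout libraries (Apoa1), 1 below (Tat) and 2 overlapped. In these list sums a gene without a value added nothing, although a missing value is not a level of 0. The cholangiocyte list summed to between 15.02 and 34.7, with Krt19 and Krt7 seen in knockout replicate 2 alone and below 1. Most of that sum was Spp1, at 31.6 and 22.4 in wild type against 23.6 and 13.1 in knockout. The lymphocyte list summed to at most 3.24 and had no value in knockout replicate 1. Of the erythroid genes, Hbb-bs had a value in both replicates 1 alone, at 79.3 in wild type and 83.2 in knockout, Alas2 had one in knockout replicate 1 alone, at 37.9, and the other 3 had none. The kidney genes Umod and Slc34a1 and the pancreas genes Prss2 and Ins2 had no value in any library. The pancreatic elastase gene Cela1, the remaining gene of that list, measured 26.5 and 26.98 in wild type against 17.4 and 28.7 in knockout, and its groups overlapped. The part of cell composition in the values of Gnmt and Bhmt was not tested.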

How the data were processed

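Liver RNA of 4 mouse libraries was sequenced on an Illumina HiSeq after TruSeq preparation, per the labels' protocols. FastQC, TopHat and Cufflinks (no versions) and build mm9 are named in the submitters' processing notes, while the coordinates fit GRCm38. The deposited values are FPKM with lower and upper confidence bounds for loci assembled in each library on its own, per the file headers, with no gene names. Loci were assigned by position to GENCODE M21 coding genes (at least 50% of the locus inside the gene, and left out where a second gene held over 25% as many exonic bases or where FPKM exceeded 3 times the midpoint of its bounds). The FPKM of a gene's loci were averaged with their exonic bases as weights, and the average was used if 50% or more of a coding transcript was covered. These rules were set after the data were seen. Library values were divided by median-of-ratios factors of 0.934 and 0.914 for the wild type and 1.20 and 0.951 for the knockout libraries. Of the genes, 7931 had a value in every library, and those reaching 1 FPKM in 2 or more libraries entered a two-sided test by limma 3.58.1 (R 4.3.3) on log2(scaled FPKM + 1). It used a mean-variance trend, and p-values were adjusted by Benjamini-Hochberg across every tested gene, with a threshold of 0.05. The fit was tested on simulated data.

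The number of fragments behind each FPKM is known only through the assumed step between bounds, so no counting interval is given. The text names all 10 members, Hjv and Hamp. Of the other pathway genes it names those with groups apart and a log2 difference of at least 0.58 in size, smallest unadjusted p first, up to 16, which gave 15, and 8 set ones (Bhmt2, Mtr, Shmt2, Ahcyl1, Mat2a, Adk, Aldh1l1 and Gclc). Cell markers, Smcr8 and the genes among the other observations were named outside that rule. Of the genes first listed, 2 are not reported here and were left out of the list counts. The members and lists were chosen with earlier results of these data known. Alternatives were 2 pseudocounts, 2 filters, 2 scalings, 2 limma settings, a replicate block, 4 other treatments of loci, each library left out, every locus over the members, and, added after seeing the data, the midpoint of the bounds and a GC correction.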

Additional observations from a re-analysis of the deposited data

How the results depend on the processing

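Among the 7 tested members, Mat1a, Gnmt, Bhmt and Cbs kept the sign of their log2 difference under all 19 alternatives. Gnmt ranged from 0.882 to 1.79, Bhmt from -1.35 to -0.812, Mat1a from -0.432 to -0.0652 and Cbs from 0.161 to 1.97. Over the alternatives that kept all 4 libraries, the limma adjusted p ran from 0.268 to 0.880 for Gnmt and from 0.281 to 0.880 for Bhmt. With 1 library left out, Cth ran from -0.0982 (without wild type replicate 2) to 0.185 and was reversed at -0.0804 without knockout replicate 1, Shmt1 ran from -0.0166 (without wild type replicate 1) to 0.0996, and Mthfd1 from -0.656 to 0.471 (without knockout replicate 1), also reversed at 0.0482 without wild type replicate 1 and at 0.104 with values as deposited. Of the pathway genes, Dmgdh reversed to 0.182 with loci summed. The causes were not tested. The members' median of 0.04 was 0.254 with values as deposited, where the median of all genes was 0.195, and ran from -0.0982 to 0.0764 with 1 library left out. The count of genes past the adjusted threshold, 0, was 1 with values as deposited and from 1 to 428 with 1 library left out, and the count of members past it was from 0 to 1. Without knockout replicate 1 the log2 difference was 1.97 for Cbs, 1.61 for Fpgs, 2.33 for Mpst, -1.21 for Odc1 and 1.09 for Tpmt. At an unadjusted p under 0.05 the count of 873 genes was 416 with loci summed and from 269 to 2251 with 1 library left out, and the members' count of 2 was 1 with all loci kept and from 0 to 4 with 1 library left out. The pathway genes' median of 0.0083 kept within the spread between libraries under every alternative. Over all genes, the deviations of libraries with the same replicate number had a Pearson correlation of only 0.0847. Replicate 2 over replicate 1 nonetheless increased with GC content in both genotypes (Spearman correlation of 0.272 in wild type and 0.484 in knockout). The libraries thus shared some differences by replicate number, and their cause was not tested. With the replicate block 0 genes passed the adjusted threshold and 906 had an unadjusted limma p under 0.05. The members' count at that p was then 3, and their median was 0.0438.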

Other observations

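Of the pathway genes that were highest in knockout replicate 2, 4 more are described here. Ftcd, which feeds one-carbon units from histidine breakdown into the folate pool, measured 70.9 and 50.1 scaled FPKM in the wild type pair and 19.9 and 141 in the knockout pair. The rhodanese gene Tst measured 27.1 and 26.3 in wild type against 25.2 and 72.1 in knockout. Gamt, which makes creatine with a methyl group of S-adenosylmethionine, measured 76.8 and 90.6 in wild type against 82.6 and 155 in knockout. Pemt, which makes phosphatidylcholine in the same way, measured 83.9 and 128 in wild type against 125 and 205 in knockout. The groups overlapped for all 4 genes, and none passed limma's adjusted test. These genes were chosen after their values were seen, and other pathway genes, among them Adk and Cdo1, were highest in that library too. Their longest coding transcripts are 57.7% (Ftcd), 58.0% (Tst), 59.7% (Gamt) and 54.9% GC (Pemt). Across tested genes, knockout replicate 2 over replicate 1 increased with GC content. The part of GC content in the values of these 4 genes was not tested.

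Cdo1, the dioxygenase that opens cysteine breakdown, stood at 679 and 670 scaled FPKM in wild type against 647 and 775 in knockout. Gcsh, a subunit of the glycine cleavage system, measured 93.2 and 92.3 in wild type against 84.5 and 73.1 in knockout, a log2 difference of -0.24 with a limma adjusted p of 0.637. Gss, which completes glutathione, had a value in knockout replicate 1 only, at 20.4. Amt, another subunit of glycine cleavage, had a value in wild type replicate 2 and knockout replicate 1 only, at 17.2 and 15.58.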
